A study of Harpegnathos saltator with 22 samples.

Results

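The genes sel (LOC105186755), Ufd1-like (LOC105192191), Arp10 (LOC105182794) and DNApol-gamma35 (LOC105187655) are 4 of 13693 genes measured in ovaries of the ant Harpegnathos saltator. They were chosen because siRNA against Kr-h1 lowered them in gamergates and raised them in workers. They belong to a set of 15 genes, 0.143% of the 10453 tested in both castes, with an adjusted p under 0.05 and these signs in both comparisons. Their products work in different places, in the endoplasmic reticulum (ER), in protein degradation, in transport along microtubules and in the mitochondrion.

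Gamergates are Harpegnathos workers that have become reproductive and lay eggs, whereas workers that do not reproduce keep small ovaries. Kr-h1 (Krüppel homolog 1) is a zinc-finger transcription factor best known as a mediator of juvenile hormone, which in many insects also acts on the ovary. Growing egg chambers make large amounts of secreted and membrane protein, move cargo along microtubules between germ cells, and load the egg with mitochondria.

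In fruit flies, seele, the counterpart of sel, encodes an ER protein of the saposin-like type that helps the protease Easter to be secreted, a step in setting the back-to-belly axis of the embryo. Ufd1 works with Npl4 as a cofactor of the p97 ATPase, called TER94 in flies, which pulls ubiquitin-tagged proteins out of membranes and complexes, among them misfolded proteins of the ER. Arp10 is an actin-related protein at the pointed end of the short filament in dynactin, the activator of the motor dynein. DNApol-gamma35 is the accessory subunit of the mitochondrial DNA polymerase, whose catalytic subunit is encoded by tam.

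Polyadenylated RNA was sequenced from the ovaries of 22 single ants, 24 h after siRNA was injected into the head. The groups were mature workers given Kr-h1 siRNA (n = 4) or GFP siRNA as control (n = 5), and mature gamergates given Kr-h1 siRNA (n = 7) or GFP siRNA (n = 6). No ant was left uninjected, so the GFP groups carry the injection too, and the labels give neither the age of the ants nor the stage of their follicles. All values come from a table the authors deposited. For 3 comparisons it lists the mean of the normalized counts, the log2 fold change, its p-value and that p after adjustment (by DESeq2, going by the submitters' processing notes). It holds no value per ant, so depth and spread between ants are unknown. Group means given below were solved from the mean, the fold change and the group sizes, and the standard error (SE) of a fold change was recovered from its p-value. Each comparison was scaled on its own, so the same control group has slightly different means in 2 comparisons.

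Kr-h1, the targeted gene, had log2 fold changes in the authors' deposited table of -0.48 in workers (adjusted p = 0.706) and 0.26 in gamergates (adjusted p = 0.734), with mean counts of 38.7 in the worker comparison and 42.3 in the gamergate comparison. No change of the target in the ovary was thus detectable. The germline gene vas had a mean of 7087 normalized counts in the caste comparison of the same table, and none of the 7 genes listed as follicle cell markers was at 0. Over all genes, 4.92% of 10577 tested were called at an adjusted p under 0.05 in workers (2.23% higher, 2.69% lower), 14.8% of 11145 in gamergates (8.95% higher, 5.9% lower) and 53.2% of 12338 between GFP castes (27.2% higher and 26% lower in workers). As ovaries were sequenced whole, fewer cells of a type and less RNA per cell cannot be told apart in any of these values.

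The 4 genes stood at high to middling abundance. In the authors' deposited table, sel had a mean of 4005 normalized counts in the caste comparison, Ufd1-like 1437, Arp10 1036 and DNApol-gamma35 677, beside a median of 421 over all genes tested there. These means are not per transcript length, so they do not rank the 4 genes against one another.

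In worker ovaries, sel and DNApol-gamma35 were about doubled after Kr-h1 siRNA, and Arp10 and Ufd1-like rose less. Of all genes tested there, 2.23% were called higher, and as the members were chosen on this comparison their own calls are only a description. The group mean of sel was 3746 normalized counts in Kr-h1 workers and 1768 in GFP workers. That is a log2 fold change of 1.08 in the authors' deposited table, 2.12-fold, with a recovered SE of 0.23 (adjusted p = 8.72e-04). DNApol-gamma35 had 692.9 in Kr-h1 and 354.5 in GFP workers, a log2 fold change of 0.97 in the authors' deposited table (recovered SE 0.21, adjusted p = 8.95e-04). Among the 236 risers in workers, sel was at rank 78 by fold and rank 22 by adjusted p, and DNApol-gamma35 at ranks 94 and 26.

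Arp10 had a group mean of 874.5 in Kr-h1 workers and 578.6 in GFP workers. Its log2 fold change in the authors' deposited table was 0.60 (recovered SE 0.16, adjusted p = 0.0154). Ufd1-like had 1447 in Kr-h1 and 1002 in GFP workers, with 0.53 in the authors' deposited table (recovered SE 0.17, adjusted p = 0.0476). Both rose by less than the median called riser in workers, which stood at 0.87. Their calls were also less firm. Worker fold changes shift with abundance, and once the running median at like mean count was subtracted, Arp10 stood at 0.49 (adjusted p = 0.0535) and Ufd1-like at 0.41 (adjusted p = 0.170), while sel (0.98) and DNApol-gamma35 (0.90) stayed under the threshold. Ufd1-like also lost its call in workers with every gene that has a p-value included (adjusted p = 0.0570).

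In gamergate ovaries, the 4 genes fell by similar and small amounts, between 1.20-fold and 1.29-fold. Of all genes tested there 5.9% were called lower, and the choice of members again used this comparison. The group mean of sel was 4603 in Kr-h1 gamergates and 5902 in GFP gamergates, a log2 fold change of -0.36 in the authors' deposited table (recovered SE 0.11, adjusted p = 0.0169). DNApol-gamma35 had 735.3 in Kr-h1 and 946.8 in GFP gamergates (log2 -0.36 in the authors' deposited table, SE 0.12, adjusted p = 0.0238). Arp10 had 1124 in Kr-h1 and 1415 in GFP gamergates (log2 -0.33 in the authors' deposited table, SE 0.10, adjusted p = 0.0152). Ufd1-like had 1483 in Kr-h1 and 1779 in GFP gamergates (log2 -0.26 in the authors' deposited table, SE 0.09, adjusted p = 0.0286). The median called decrease in gamergates was -0.35, so these are middling members of the 657 genes that fell, at ranks 306 to 507 by size. Their 95% intervals overlap one another, from -0.60 to -0.13 for DNApol-gamma35 and from -0.44 to -0.09 for Ufd1-like.

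The threshold that made the set runs close to Ufd1-like. Among genes with a descriptive symbol, it lay just inside, with an adjusted p of 0.0476 in workers, and SsRbeta, a subunit of the ER translocon-associated complex, lay just outside at 0.0545 in workers and 0.00589 in gamergates in the authors' deposited table.

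**Figure D1:**
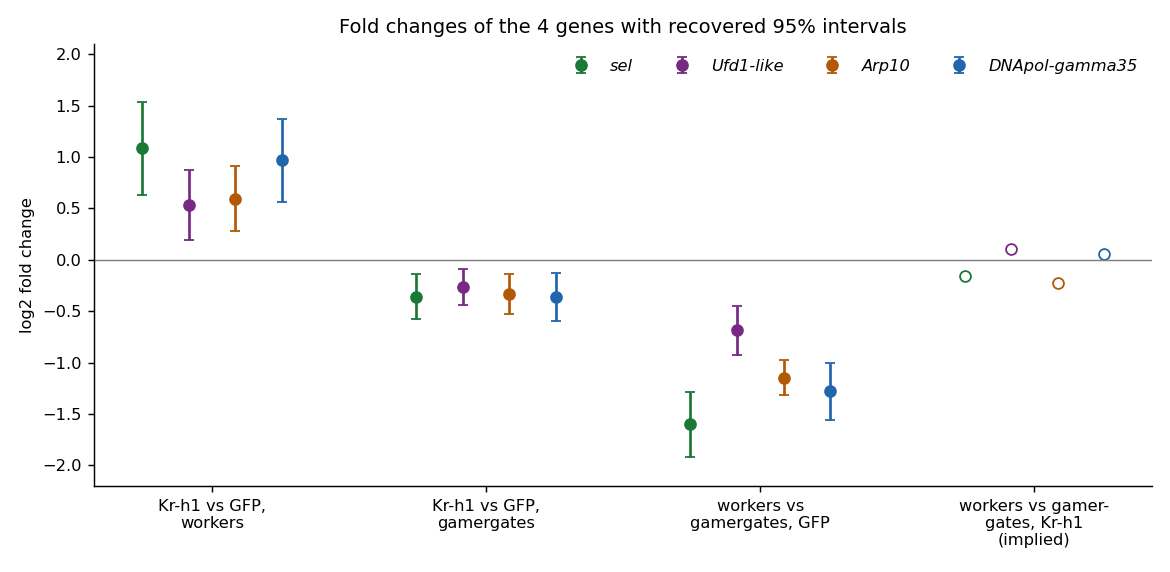
Log2 fold changes (y axis) of the 4 genes in the 3 deposited comparisons, as filled points with 95% intervals recovered from the p-values, and in the implied comparison of Kr-h1 workers with Kr-h1 gamergates, as open points with no interval. All 4 genes lie above 0 in workers, below 0 in gamergates and below 0 between GFP castes, and between -0.22 and 0.10 in the implied comparison.

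In GFP ants the castes differed in the same 4 genes. There, sel had a group mean of 1897 normalized counts in workers and 5761 in gamergates, 32.9% of the gamergate level. DNApol-gamma35 had 380.6 in workers and 924.0 in gamergates (41.2%), Arp10 had 622.5 in workers and 1381 in gamergates (45.1%), and Ufd1-like had 1078 in workers and 1736 in gamergates (62.1%). All 4 were called lower in workers in the authors' deposited table, with log2 fold changes of -1.60 for sel (recovered SE 0.16, adjusted p = 1.24e-21), -1.28 for DNApol-gamma35 (SE 0.14, adjusted p = 1.88e-18), -1.15 for Arp10 (SE 0.09, adjusted p = 3.70e-38) and -0.69 for Ufd1-like (SE 0.12, adjusted p = 1.04e-07). Of all genes tested between castes, 26% were called lower in workers. This comparison uses the GFP ants of both knockdown comparisons, so genes picked as low in GFP workers and high in GFP gamergates lean towards this sign by the way they were picked.

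After Kr-h1 siRNA, the levels of the 4 genes in the castes lay close together. The deposited table holds no comparison of Kr-h1 workers with Kr-h1 gamergates, but the caste fold change plus the worker knockdown fold change minus the gamergate one gives it, without an error. The implied log2 difference was -0.16 for sel, 0.05 for DNApol-gamma35, -0.22 for Arp10 and 0.10 for Ufd1-like. On the scale of the caste comparison this puts sel at 4019 in Kr-h1 workers and 4493 in Kr-h1 gamergates, so that workers stood at 89.5% of gamergates. DNApol-gamma35 stood at 743.8 in Kr-h1 workers and 717.6 in Kr-h1 gamergates (104%), Arp10 at 940.8 in Kr-h1 workers and 1097 in Kr-h1 gamergates (85.7%), and Ufd1-like at 1556 in Kr-h1 workers and 1447 in Kr-h1 gamergates (108%). The worker value moved more than the gamergate value in each case. Recovered SEs were larger in workers, with a median over all genes tested of 0.21 beside 0.13 in gamergates. A call in workers thus took a larger fold, so the larger worker change follows in part from the choice. No error is known for the implied differences, and for sel the value was -0.42 once fold changes were corrected for their trend on abundance. A gene that starts lower in workers, rises there and falls in gamergates must end with a smaller gap unless the changes overshoot, so the narrowing follows in large part from the choice.

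**Figure D2:**
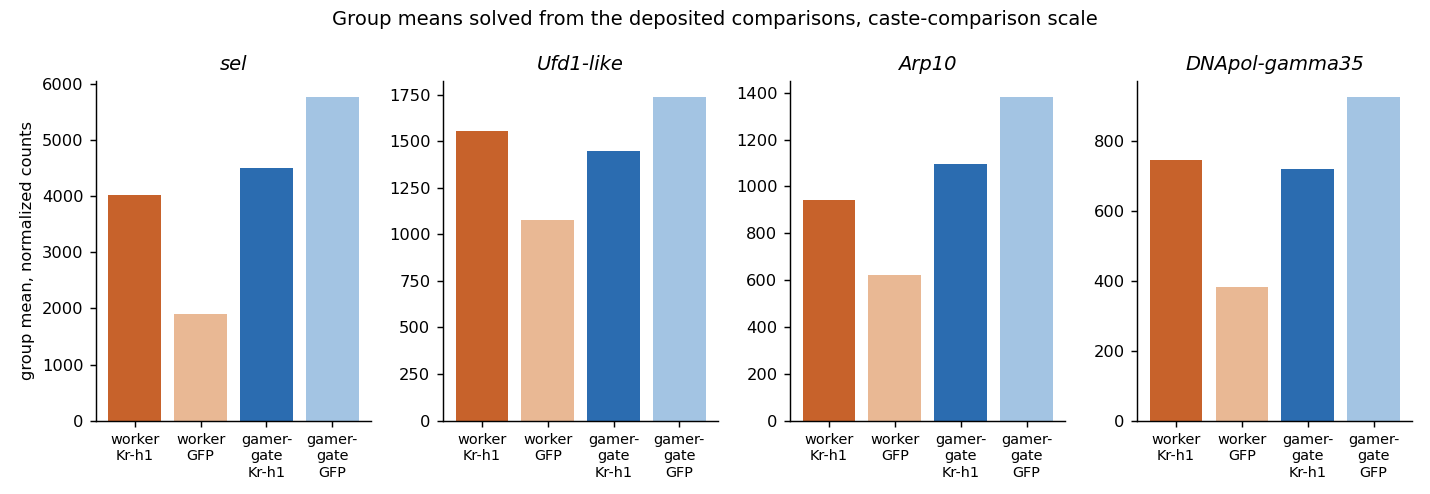
Group means in normalized counts (y axis, bars from 0) for the 4 genes in Kr-h1 workers, GFP workers, Kr-h1 gamergates and GFP gamergates, on the scale of the caste comparison. No error bar can be drawn because no value per ant was used. In each gene the GFP gamergate bar is the tallest, the GFP worker bar the lowest, and the Kr-h1 bars of the castes lie between them.

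The order of the 4 levels was GFP workers lowest and GFP gamergates highest in every gene, with the Kr-h1 groups between. For sel and Arp10 Kr-h1 workers came below Kr-h1 gamergates, and for DNApol-gamma35 and Ufd1-like above them. With no value per ant, whether the Kr-h1 groups of the castes differed beyond the spread between ants was not tested.

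Markers of several cell types also moved in these ovaries. The shares of all genes to set beside their counts are 2.23% higher and 2.69% lower in workers. In gamergates they are 8.95% higher and 5.9% lower, and between GFP castes 27.2% higher and 26% lower in workers. The summed group means of 8 fat body markers were 5662 in Kr-h1 workers and 9435 in GFP workers, and 4493 in Kr-h1 gamergates and 2312 in GFP gamergates. Of the 8, 0 were called higher and 1 lower in workers, and 3 higher and 0 lower in gamergates. The fat body sums rest mostly on apolpp and FASN1, with means of 4301 and 1386 in the caste comparison. In workers apolpp had -1.05 (adjusted p = 0.545) and FASN1 0.08 (adjusted p = 0.862), all in the authors' deposited table. The median of the 8 was -0.80 in workers and 1.07 in gamergates. The marker vg was matched by its symbol only, and whether it is the gene of the yolk protein vitellogenin was not checked. Its mean was 46.5 in the caste comparison, and it was called higher in GFP workers (1.88), both in the authors' deposited table. The 12 muscle markers summed to 19429 in Kr-h1 and 32294 in GFP workers (none called), and to 13126 in Kr-h1 and 11787 in GFP gamergates (2 higher). Much of these sums came from Tm1, which hardly moved, with a mean of 6843 and -0.03 in gamergates and 0.00 in workers in the authors' deposited table. The median of the 12 was -1.05 in workers and 0.64 in gamergates. The 7 follicle cell markers summed to 3342 in Kr-h1 and 3597 in GFP workers (4 lower of 7 tested), and to 5635 in Kr-h1 and 17610 in GFP gamergates (1 higher and 1 lower of 5 tested). The difference between the gamergate sums lay mainly in ndl (-3.87) and yellow-g (-7.54) in the authors' deposited table. There yellow-g has neither a p-value nor an adjusted p in gamergates or between castes, and with no value per ant its spread is unknown. Its mean was 2085 in the gamergate comparison, so the p-value is not missing for want of counts. Whether a single ant carried those counts was not tested, so the part of yellow-g in the follicle sums is uncertain. In gamergates yellow-g2 (-3.59, likewise with neither p-value nor adjusted p) and tsl (-0.83, adjusted p = 0.261) were also lower in that table. There tj (-0.21), Fas3 (-0.12) and fs(1)N (0.37) differed far less. The gene called higher in gamergates was fs(1)N (adjusted p = 0.0495). Whether fs(1)N marks follicle cells in these ovaries was not checked, so the follicle sums and counts that include it may not be of follicle cells alone. Between GFP groups, fat body markers summed to 10311 in workers and 2256 in gamergates (7 of 8 higher in workers). Muscle markers summed to 34713 in GFP workers and 11506 in GFP gamergates (9 of 12 higher), and follicle markers to 3864 in GFP workers and 17181 in GFP gamergates (1 higher and 3 lower of 6 tested). The 9 nerve markers summed to 1357 in Kr-h1 and 1728 in GFP workers (1 lower of 7 tested) and to 2148 in Kr-h1 and 1855 in GFP gamergates (4 higher of 9), and to 1873 in GFP workers and 1812 in GFP gamergates in the caste comparison (6 higher and 2 lower in workers). For 3 haemocyte markers the sums were 650.0 in Kr-h1 and 1033 in GFP workers (1 lower), and 1912 in Kr-h1 and 2344 in GFP gamergates (none called), with 1110 in GFP workers and 2289 in GFP gamergates in the caste comparison (1 higher and 2 lower in workers). These sums rest mostly on Pvr, with a mean of 1300 in the caste comparison beside 434.1 for Hml and 19.4 for PPO in the authors' deposited table. The gene called in workers was Pvr (-0.94 in that table). Whether Pvr marks haemocytes alone in these ovaries was not checked. Between GFP castes Pvr (-1.33) and Hml (-0.44) were lower in workers there and PPO (2.18) higher, so the 3 markers do not move as 1. The 3 germline markers summed to 18731 in Kr-h1 and 17247 in GFP workers and to 17049 in Kr-h1 and 15320 in GFP gamergates (none called). Between GFP castes they summed to 18526 in workers and 14953 in gamergates, and all 3 were called in the authors' deposited table, orb (1.07) and vas (0.41) higher in workers and BicC (-1.07) lower. No marker of any list was at 0, and the part of these shifts in the results on the 4 genes was not tested.

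The 4 genes share their pattern with 11 others, of which 3 have a descriptive symbol. These were GatC, a subunit of the mitochondrial amidotransferase that makes glutaminyl-tRNA, Dera, deoxyribose-phosphate aldolase, and meigo, an ER membrane protein. In the authors' deposited table GatC had a log2 fold change of 0.77 in workers and -0.34 in gamergates, Dera one of 0.66 in workers and -0.43 in gamergates, and meigo one of 0.56 in workers and -0.29 in gamergates. All 15 genes were called lower in GFP workers than in GFP gamergates, where 26% of all genes tested were called lower. Their log2 fold changes there ran from -4.07 to -0.46, with a median of -1.28. Their implied difference between Kr-h1 castes ran from -1.86 to 0.38, with a median of -0.14, and was smaller than the GFP difference in 15 of 15. The shared GFP ants bear on these counts as they do on the 4 genes. The smaller difference in 15 of 15 again follows in large part from the choice of genes by these signs. The reverse pattern, higher in gamergates and lower in workers, was found in 38 genes.

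**Figure D3:**
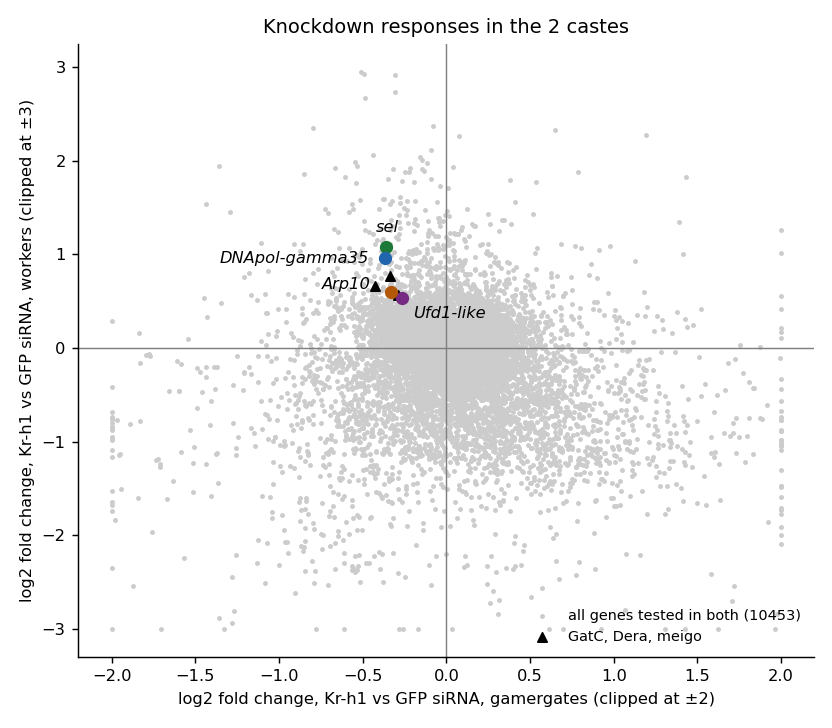
Log2 fold change after Kr-h1 siRNA in gamergates (x axis, clipped at 2 either way) and in workers (y axis, clipped at 3 either way) for the 10453 genes tested in both castes, in grey. The 4 genes (coloured points) and GatC, Dera and meigo (triangles) lie in the upper left part, at small decreases in gamergates and larger increases in workers. A call took a larger fold in workers than in gamergates, which favours this difference.

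Among genes of the ER that fold and export proteins, the setting in which sel works, many members fell with sel in gamergates. Of 27 such genes tested there besides sel, 14 fell and 0 rose, where 5.9% of all genes were called lower and 8.95% higher. Their median was -0.25 beside 0.00 over all genes tested. In the authors' deposited table, Sec61alpha, the channel through which proteins enter the ER, stood at -0.70 (adjusted p = 0.00157), wbl, a thioredoxin-fold ER protein that flies need for the same egg axis as seele, at -0.71 (adjusted p = 0.00327), SsRbeta at -0.52 (adjusted p = 0.00589) and Sar1, a GTPase of the COPII coat, at -0.25 (adjusted p = 0.00460). In workers 1 of the 27 rose and 0 fell, where 2.23% of all genes were called higher, with a median of 0.13 beside 0.01 over all genes. The gene that rose was the ER chaperone Gp93, which had 0.88 in workers (adjusted p = 0.0262) in the authors' deposited table. In gamergates its value there of -0.30 did not pass (adjusted p = 0.0970). The chaperone Hsc70-3 had 0.58 in workers (adjusted p = 0.103) and -0.27 in gamergates (adjusted p = 0.0572) in the same table and was called in neither.

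Between GFP castes, 21 of the 27 other ER genes were called lower in workers and 2 higher, where 26% of all genes were lower and 27.2% higher. Their median was -0.60 beside 0.05 over all genes. The largest differences in the authors' deposited table were those of Gp93 (-1.72), sel (-1.60) and Hsc70-3 (-1.56). The low level of sel in worker ovaries thus stood beside low levels of most genes on the ER list. The caste comparison shares its GFP ants with the knockdown comparisons, so its counts are not independent of theirs, here and for the lists below. The lists were also written with earlier results of these data known. Of the 9 genes measured on the egg dorsoventral list, 1 rose and 2 fell in gamergates, where 8.95% of all genes rose and 5.9% fell. In workers 0 of the 9 rose and 1 fell, where 2.23% of all genes rose and 2.69% fell. Between GFP castes 2 of the 9 were higher in workers and 3 lower, near the shares of all genes (27.2% higher, 26% lower). The eggshell protease ndl fell in both, at -1.53 in workers (adjusted p = 3.17e-04) and -3.87 in gamergates (adjusted p = 8.74e-11) in the authors' deposited table. Its sign in workers was thus opposite to that of sel. Egfr, the receptor of the signal that the oocyte sends to the follicle cells, stood at 0.57 in gamergates in the same table.

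The partners of Ufd1-like in its complex were not called after knockdown. As Ufd1-like was chosen for its calls, and its worker call was lost with the trend removed, this contrast is a description, and the difference between a gene and its partners was not tested. In the authors' deposited table TER94, the p97 ATPase itself, had 0.11 in workers (adjusted p = 0.787) and 0.09 in gamergates (adjusted p = 0.426). Npl4, which pairs with Ufd1 on p97, had 0.08 in workers (adjusted p = 0.674) and 0.03 in gamergates (adjusted p = 0.693) in the same table. Of the 18 other genes tested for p97 and ER-associated degradation, 0 were called in workers, where 4.92% of all genes were, and their median was 0.11 beside 0.01 over all genes.

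In gamergates, 4 of those 18 genes fell and 1 rose, where 5.9% of all genes fell and 8.95% rose, with a median of -0.02 beside 0.00 over all genes. Those that fell were Der-1 (-0.27, adjusted p = 0.00640), a channel component for misfolded ER proteins, the ubiquitin-conjugating enzymes Ubc6 (-0.18) and Ubc7 (-0.32, adjusted p = 0.0240), and sip3 (-0.30, adjusted p = 0.0124), the fly counterpart of the ER ubiquitin ligase Hrd1, all in the authors' deposited table. The gene that rose there was Ubqn, a shuttle factor for ubiquitinated proteins (0.27, adjusted p = 0.0384). The list was matched by symbol, and whether the gene named Ubc6 here works in ER-associated degradation was not checked. Between GFP castes 11 of the 18 were lower in workers and 1 higher, where 26% of all genes were lower and 27.2% higher, with Edem1, which marks misfolded glycoproteins for removal, at -1.22 and sip3 at -0.96 in the authors' deposited table. TER94 was lower in GFP workers by less than Ufd1-like, at -0.37 in that table, and Npl4 was not called (-0.04).

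Arp10 was likewise chosen for its calls, of which the worker call was lost with the trend removed. Of 20 other dynactin, dynein and adaptor genes tested, 0 were called in workers, where 4.92% of all genes were, and their median was 0.10 beside 0.01 over all genes. The filament subunit Arp1 had 0.08 in workers (adjusted p = 0.749) and -0.02 in gamergates (adjusted p = 0.795) in the authors' deposited table. In gamergates 3 of the 20 rose and 1 fell (median 0.11), where 8.95% of all genes rose and 5.9% fell. BicD (0.46, adjusted p = 0.00183), the adaptor that links dynein to cargo in the fly oocyte, Lis-1 (0.18, adjusted p = 0.0132) and DCTN1-p150 (0.22, adjusted p = 0.0199), the large subunit of dynactin, rose in the authors' deposited table, against the direction of Arp10. The gene that fell was robl, a dynein light chain (-0.31, adjusted p = 0.0466).

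Between GFP castes, 5 of these 20 genes were lower in workers and 4 higher, near or below the shares of all genes (26% lower, 27.2% higher). Arp10 had the lowest value of the list, and Spindly, an adaptor of dynein at kinetochores, followed at -0.93 in the authors' deposited table. The capping protein subunit cpb (0.55) and Zw10 (0.61) were higher in workers there. Spindly also had 0.55 in workers after Kr-h1 siRNA and -0.20 in gamergates in the same table, neither of which passed (adjusted p = 0.0657 in workers, 0.138 in gamergates). Of 7 other actin-related proteins tested, 0 were called after knockdown in either caste, where 4.92% of all genes were in workers and 14.8% in gamergates. Between GFP castes 2 of the 7 were lower in workers and 0 higher, where 26% of all genes were lower and 27.2% higher.

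The catalytic subunit of the polymerase of DNApol-gamma35 did not pass the test in either knockdown comparison, those on which DNApol-gamma35 itself was chosen. In the authors' deposited table tam had -0.16 in workers (adjusted p = 0.766) and 0.08 in gamergates (adjusted p = 0.724). Of 12 other genes tested for replication and upkeep of mitochondrial DNA, 0 were called in workers, where 4.92% of all genes were (median 0.11 beside 0.01 over all genes). The replicative helicase mtDNA-helicase had 0.08 in workers (adjusted p = 0.771) and 0.01 in gamergates (adjusted p = 0.929) in the same table. The single-strand binding protein mtSSB had 0.21 in workers (adjusted p = 0.459) and -0.34 in gamergates (adjusted p = 0.0515) there, so that its gamergate value, just short of the threshold, was of a size with that of DNApol-gamma35.

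In gamergates 2 of the 12 fell and 1 rose, where 5.9% of all genes fell and 8.95% rose. TFAM, which packages mitochondrial DNA, stood at -0.25 (adjusted p = 0.00673), and rnh1, a ribonuclease H, at -0.20 (adjusted p = 0.0278), while Top3alpha rose by 0.22 (adjusted p = 0.0211), all in the authors' deposited table. Between GFP castes 3 of the 12 were lower in workers and 2 higher, near or below the shares of all genes (26% lower, 27.2% higher). DNApol-gamma35 was the lowest of the list, at -1.28, followed in the authors' deposited table by the protease Lon and by tam (both -0.46), and mtTFB2, a mitochondrial transcription factor, was higher in workers at 0.36.

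**Figure D4:**
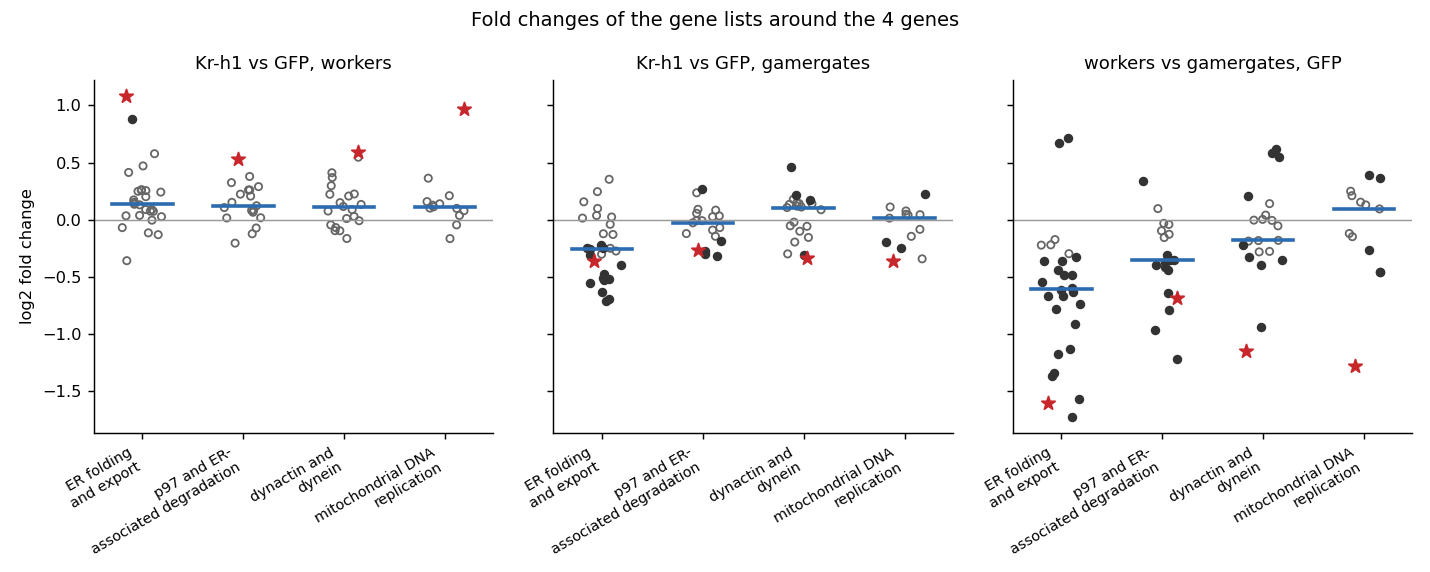
Log2 fold changes (y axis) of the members of 4 gene lists (x axis) in workers, in gamergates and between GFP castes. Stars are sel, Ufd1-like, Arp10 and DNApol-gamma35 in their own lists, filled points other genes with an adjusted p under 0.05, open points genes that did not pass, and lines list medians. In workers each star is the highest point of its list, which the choice of the 4 genes favours, and between GFP castes the stars of the dynactin and mitochondrial lists are the lowest.

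DNApol-gamma35 has close neighbours that bear on how its reads were counted. In the RefSeq table of assembly Hsal_v8.6 its span overlaps those of KdelR, the receptor that returns proteins to the ER, and of GatC. GatC had the same pattern as DNApol-gamma35, with 0.77 in workers, -0.34 in gamergates and -1.15 between GFP castes in the authors' deposited table. KdelR had -0.05 in workers (adjusted p = 0.855), -0.51 in gamergates (adjusted p = 1.47e-04) and -0.76 between castes in that table, so it fell in gamergates and was lower in GFP workers than in GFP gamergates, but was not called in workers after knockdown. The libraries kept strand, but neither the counting setting nor the strands of these genes is stated in the labels or the RefSeq table. Whether reads of the overlap reached 1 gene or another was not tested, and the values of DNApol-gamma35 and GatC are uncertain to that extent and may not be independent of each other.

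Of the 5 genes with values next to the other 3 genes, 0 were called after knockdown in either caste. Of all genes tested, 4.92% were called in workers and 14.8% in gamergates, from which 0 of so few cannot be told apart. Next to sel stands Ref1, with 0.11 in workers (adjusted p = 0.671) and -0.13 in gamergates (adjusted p = 0.204) in the authors' deposited table. Next to Ufd1-like stands Vps29, with 0.21 in workers (adjusted p = 0.515) and -0.19 in gamergates (adjusted p = 0.0564), and next to Arp10 stands eIF3f1, with -0.03 in workers (adjusted p = 0.940) and -0.19 in gamergates (adjusted p = 0.301), both in the same table. None of these spans overlaps that of its neighbour in the RefSeq table.

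The genes most like each of the 4 were sought among genes with a symbol whose mean was 50 or more in every comparison, by distance over the 4 group means on a log2 scale, each centred on its own mean. Nearest to sel was mol, an ER maturation factor of the dual oxidase in flies, at a distance of 0.14, with 0.97 in workers (adjusted p = 6.55e-04) and -0.24 in gamergates (adjusted p = 0.474) in the authors' deposited table. It was followed by BBS5 (0.20) and Exd2 (0.23). Nearest to DNApol-gamma35 were BBS5, a protein of the complex that carries cargo to cilia (0.14), GatC (0.14) and mdu (0.16). Nearest to Arp10 were jagn, an ER membrane protein (0.09), meigo (0.09) and the TBP-related factor Trf (0.09). Nearest to Ufd1-like were snsl (0.03), PIG-P, of GPI anchor synthesis (0.08), and the ubiquitin hydrolase Uch (0.09). Of the 4 genes themselves, Arp10 and DNApol-gamma35 lay closest, at 0.27, and sel and Ufd1-like farthest apart, at 0.71. These distances rest on 4 group means that share control ants, and with the fold changes used in their place 7 of the 12 pairs of a gene and its near gene (BBS5 is in 2) were found again.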

How the data were processed

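Ovary libraries from single ants were grouped by the caste and siRNA in their titles. The authors' files used here hold 1 deposited table of 3 comparisons and no count per ant, so edgeR could not be run. The planned count test was replaced by the authors' own log2 fold changes, p-values and adjusted p-values, as deposited and not retested, at an adjusted p of 0.05. Per the submitters' processing notes, bcl2fastq, STAR, featureCounts and DESeq2 were used. Versions, build and counting settings are not stated in any source read here.

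The group means were solved from the deposited mean normalized counts. For the same GFP group, the median ratio between comparisons was 0.929 in workers and 1.02 in gamergates, over 8313 genes. SEs were recovered by dividing each fold change by the normal score of its p, on the assumption of a Wald test. The deposited adjusted p was within 0.0018 of a Benjamini-Hochberg adjustment over the same genes. The solving and adjusting steps were tested on simulated data. Symbols came from the RefSeq table of Hsal_v8.6, where 13681 of 13693 IDs matched. It holds no sequences, and no coordinates are printed because the authors' build is not given.

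The 4 genes and all lists were chosen with earlier results of these data known. Named genes were the 4, Kr-h1, up to 4 called genes per list and comparison, the 3 nearest genes to each, other genes of the set, and neighbours. TER94, Npl4, Arp1, tam, mtDNA-helicase, mtSSB, Hsc70-3 in knockdown, robl, Ubqn and Spindly in knockdown were named as complex or list partners after their values were seen. So were the follicle, germline, fat body, muscle and haemocyte markers given singly. Alternatives were another set of genes for the adjustment, a mean of at least 50, a threshold of 0.01, and removal of the trend on mean count (running median over 501 genes). Python 3.11.15, pandas 2.3.3, numpy 2.4.6 and scipy 1.17.1 were used.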

Additional observations from a re-analysis of the deposited data

How the results depend on the processing

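Of 48 values of the 4 genes under the alternatives, 39 kept their side of the threshold and all kept their direction. Only removal of the trend alters a fold change, so under the other alternatives direction could not change. The caste values, with an adjusted p of 1.04e-07 or less, were also far from either threshold, so this tally says little of how firm the knockdown calls are. Ufd1-like lost its call in workers when p-values were adjusted over every gene with one (adjusted p = 0.0570) and, with Arp10, after removal of the trend on mean count. The set of 15 had 13 genes (13 shared, without Ufd1-like) with every gene adjusted, 20 (15 shared) at a mean of at least 50, and 10 (7 shared, with sel and DNApol-gamma35 but without Arp10 and Ufd1-like) after trend removal. At an adjusted p of 0.01 it had 0, and 0 of the 4 genes passed in gamergates. By that threshold 66 genes were higher and 53 lower in workers, and 393 higher and 187 lower in gamergates. The implied difference of sel between Kr-h1 castes became -0.42 with the trend removed, as the subtracted medians add up there. Of the 12 pairs of a gene and a most like gene, 7 returned when distances used the fold changes. No paired analysis was possible because no value per ant was used here, and for the same reason no ant could be left out and no other normalization tried. Depth per library is unknown.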
